A study of Mus musculus with 12 samples.

Results

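Imprinted genes are transcribed mainly from the copy inherited from 1 parent. The 36 genes described here were taken by symbol from a table of 35856 rows and comprise 13 that are known as maternally expressed and 23 known as paternally expressed in mouse tissues. They lie outside the imprinted domain of distal chromosome 7. All 36 symbols had a row with a value in each of the 12 libraries, and 33 had at least 1 TPM (a transcript level scaled for length and library size) in at least 2 libraries and entered the tests.

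The values are RNA-seq levels in cardiac precursors, mesodermal progenitors of the heart muscle lineage, grown from C57BL/6 mouse embryonic stem cells. The cells were of 3 lines, labelled SUZ12-AID, MTF2-AID and AID-JARID2, each with an auxin-inducible degron on the named subunit of Polycomb repressive complex 2 (PRC2). Every line, untreated or treated, also carried Tir1, the plant receptor through which auxin marks a tagged protein for breakdown. Each line gave 2 untreated libraries and 2 from cells given the auxin indole-3-acetic acid at 50 µM, and differentiation ran through 48 h of embryoid body culture, a 43 h reaggregation and 32 h in monolayer. The labels give neither the time at which auxin was added nor whether the 2 libraries of a group were separate cultures, so p-values measure the spread between these libraries, which may be technical. No line without a tag was given auxin and each subunit is represented by 1 line, so an effect of auxin itself or of the line cannot be told apart from loss of the subunit. The table sums both parental copies of a gene, so a change in level says nothing of which copy changed.

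In most imprinted clusters an imprinting control region carries DNA methylation on 1 parental copy, set in the germ line and kept in the embryo by the zinc finger protein ZFP57 with its partner TRIM28. Many clusters hold a long noncoding RNA expressed from the copy on which the protein-coding genes are silent, such as Airn at Igf2r or Meg3 at Dlk1. PRC2 places the repressive mark H3K27me3. At a few genes, among them Gab1, Sfmbt2 and Slc38a4, that mark rather than DNA methylation marks the maternal copy in the early embryo, and imprinted expression persists mainly in extraembryonic tissue. SUZ12 belongs to the PRC2 core, while MTF2 and JARID2 are partner proteins of separate PRC2 variants.

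Promoters of paternally expressed members are shown because ZFP57 reads a methylated hexamer, TGCCGC, that some of them hold at the start site. RefSeq windows on GRCm38.p6, from 250 bases before to 50 after a start, were found for 29 of the 36 members. The hexamer, searched as TGCCGC and as its reverse complement GCGGCA, which do not overlap here, occurred in windows of 5 of 17 paternally expressed members and 4 of 12 maternally expressed members (Copg2, Grb10, Meg3 and Zim1). Of all 32851 windows, 3813 (11.6%) held it, against 10 of the members' 44. A match is a description of the letters in this window and not a binding site. The sequences run 5′ to 3′ on the strand of the gene, with the hexamer in capitals. Zdbf2, Mest and Snrpn had 2, 3 and 4 windows, of which the one with most hexamers is printed.
Zdbf2 (chr1:63200108-63200407, plus strand): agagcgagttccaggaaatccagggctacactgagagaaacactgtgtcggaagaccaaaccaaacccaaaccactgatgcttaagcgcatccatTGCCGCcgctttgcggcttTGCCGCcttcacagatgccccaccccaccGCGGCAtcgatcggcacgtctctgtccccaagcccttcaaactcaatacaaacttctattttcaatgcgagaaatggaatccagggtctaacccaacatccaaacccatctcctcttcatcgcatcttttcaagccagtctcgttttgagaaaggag
Mest (chr6:30737800-30738099, plus strand): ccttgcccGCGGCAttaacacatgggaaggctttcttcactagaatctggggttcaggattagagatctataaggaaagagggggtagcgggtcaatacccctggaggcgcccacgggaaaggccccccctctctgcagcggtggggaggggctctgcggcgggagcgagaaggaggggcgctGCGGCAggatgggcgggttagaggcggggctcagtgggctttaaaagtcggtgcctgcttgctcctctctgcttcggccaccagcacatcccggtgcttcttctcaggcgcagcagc
Nnat (chr2:157559828-157560127, plus strand): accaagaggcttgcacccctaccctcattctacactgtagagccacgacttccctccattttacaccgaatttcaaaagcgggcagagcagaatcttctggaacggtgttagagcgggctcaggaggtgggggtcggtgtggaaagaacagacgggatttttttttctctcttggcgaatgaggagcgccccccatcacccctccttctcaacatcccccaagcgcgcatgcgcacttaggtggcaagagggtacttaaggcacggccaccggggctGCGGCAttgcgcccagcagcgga
Plagl1 (chr10:13090582-13090881, plus strand): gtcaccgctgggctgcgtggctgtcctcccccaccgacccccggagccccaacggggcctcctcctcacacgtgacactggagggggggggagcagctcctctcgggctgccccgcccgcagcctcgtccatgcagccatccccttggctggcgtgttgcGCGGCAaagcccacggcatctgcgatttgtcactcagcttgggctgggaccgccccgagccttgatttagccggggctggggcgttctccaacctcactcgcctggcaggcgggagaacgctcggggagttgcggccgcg
Snrpn (chr7:60005150-60005449, minus strand): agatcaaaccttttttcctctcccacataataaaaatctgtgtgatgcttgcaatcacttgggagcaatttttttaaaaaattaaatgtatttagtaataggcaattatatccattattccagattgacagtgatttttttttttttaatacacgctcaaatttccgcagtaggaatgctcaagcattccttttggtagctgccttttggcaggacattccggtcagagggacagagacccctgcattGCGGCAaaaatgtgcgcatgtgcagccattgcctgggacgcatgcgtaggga
The numbers of hexamers were 3 in Zdbf2, 2 in Mest and 1 each in Nnat, Plagl1 and Snrpn. CpG pairs numbered 15, 17, 17, 26 and 7 in the same order, against a median of 7 over all windows. Among these 5 genes, Zdbf2, Nnat and Plagl1 rose and Mest fell with auxin in AID-JARID2, and Snrpn was too low to be tested.

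A further promoter is shown for Peg3, whose window holds no hexamer but shares 263 bases, in capitals, with the window of Usp29 on the opposite strand, a pair of genes that fell together in AID-JARID2.
Peg3 (chr7:6730370-6730669, minus strand): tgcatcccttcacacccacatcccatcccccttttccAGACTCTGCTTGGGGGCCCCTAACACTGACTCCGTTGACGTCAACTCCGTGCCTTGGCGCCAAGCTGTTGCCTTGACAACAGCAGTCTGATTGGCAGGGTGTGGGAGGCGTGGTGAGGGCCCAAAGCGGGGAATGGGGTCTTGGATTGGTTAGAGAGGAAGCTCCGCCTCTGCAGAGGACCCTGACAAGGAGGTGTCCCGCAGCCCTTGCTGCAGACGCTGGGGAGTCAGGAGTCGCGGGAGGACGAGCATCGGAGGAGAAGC

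The libraries held 10138285 to 17171770 reads, recovered from the steps of the TPM values, and 18961 to 21023 genes above 0. The 2 untreated SUZ12-AID libraries differed most: the median absolute log2 difference between them was 0.195, against 0.0884 to 0.144 in the other groups. Replicate 1 minus replicate 2 had a median of -0.32 (log2) over the 25% of genes with the longest transcripts, against 0.07 over the 25% with the shortest. With auxin in SUZ12-AID these medians were -0.16 and 0.01. Over the longest transcripts they were -0.05 to 0.04 in the other 2 lines. Which library of a pair departed cannot be told from 2 libraries. Replicate 1 of untreated SUZ12-AID was lower than replicate 2 for members such as Peg3, Peg10 and Zdbf2. Of the markers fixed for the cell types, 9 of 10 cardiac mesoderm genes passed the filter, and their level summed over the 10 was 1656 to 2861 TPM in untreated libraries. Most of that sum was Hand1, at 1352 to 2552 TPM in the same libraries. With auxin in AID-JARID2 this sum went from 2238 to 2292 TPM down to 173 to 208 TPM, and 8 of 9 markers fell and 0 rose. The sum of 8 pluripotency markers went from 403 to 419 TPM up to 2608 to 2615 TPM in the same libraries, where 7 rose and Klf4 fell. In SUZ12-AID the pluripotency sum went from 153 to 173 TPM up to 267 to 329.5 TPM (6 of 8 rose). The cardiac mesoderm sum there went from 2546 to 2861 TPM down to 1455 to 1554 TPM, with 5 of 9 markers higher and Hand1 lower. That lower sum follows Hand1, which went from 2291 and 2552 TPM to 1077 and 989.8 TPM. The pluripotency sum in MTF2-AID was 192 to 201 TPM untreated and 191 to 196 TPM with auxin. No marker was at 0 in both libraries of a group on these 2 lists. Many of the imprinted genes are placental. Of 5 tested trophoblast markers, 2 fell in AID-JARID2 (Plac1, from 46.6 and 44.3 TPM to 3.53 and 3.15 TPM, and Gata3, from 11.1 and 10.9 TPM to 3.44 and 4.26 TPM) and Tfap2c rose. The sum of the 7 on that list, 202 to 211 TPM untreated and 182 to 193 TPM with auxin, consisted mostly of Eomes, at 144 to 180.3 TPM, and Elf5 and Prl3d1 were at 0 in all 4 libraries. In SUZ12-AID 4 of the 5 rose and the sum went from 76.0 to 79.4 TPM up to 92.6 to 102 TPM.

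Other cell type markers moved as well. In AID-JARID2 the sum of 5 mesenchyme markers went from 104 to 105 TPM down to 24.7 to 25.3 TPM (Col1a1 and Pdgfrb fell, Thy1 rose). That of 5 neural markers went from 12.8 to 15.3 TPM up to 76.9 to 84.0 TPM, where both tested genes, Tubb3 and Map2, rose. Most of the neural sum with auxin was Tubb3, at 74.2 and 80.9 TPM. Sox1, Pax6 and Neurog1 had at most 0.274 TPM in those libraries and were not tested. The 5 cardiomyocyte markers summed to 101 to 115 TPM untreated and 46.7 to 52.4 TPM with auxin there (3 fell), and the 5 endothelial ones to 20.5 to 22.4 TPM and 8.56 to 9.21 TPM (Pecam1 fell, Cd34 rose). In SUZ12-AID the sum of 4 blood markers went from 38.7 to 51.8 TPM down to 4.53 to 5.53 TPM (3 fell). Of the endothelial markers in that line 4 of 5 rose and Pecam1 fell, with sums of 88.9 to 107 TPM and 94.3 to 98.5 TPM, and 3 of 5 cardiomyocyte markers rose. Endoderm markers summed to at most 6.42 TPM in any group. In MTF2-AID 0 markers on any list passed with limma, although the blood sum was 9.04 to 13.6 TPM untreated and 1.85 to 3.99 TPM with auxin. In AID-JARID2 and SUZ12-AID markers and imprinted genes both changed in the same libraries, not always in the same direction. The part of the marker changes in those of the imprinted genes was not tested. In bulk RNA, fewer cells of a type and less RNA per cell cannot be told apart.

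Many imprinted transcripts were lower with auxin in AID-JARID2, a smaller set was higher, by smaller amounts, in SUZ12-AID, and none passed the test in MTF2-AID. Summed over all 36 genes, the untreated AID-JARID2 libraries held 3269 and 3503 TPM and the auxin libraries 1316 and 1343 TPM. Most of that sum came from a few abundant paternally expressed genes, led by the retrotransposon-derived Peg10 and the zinc finger gene Peg3. The sums were 2129.8 and 2982 TPM untreated against 2669.6 and 2924 TPM with auxin in SUZ12-AID, which overlap. In MTF2-AID they were 3084 to 3181 TPM untreated and 3389 to 3439.7 TPM with auxin.

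Tests used limma on log2(TPM + 1) with p-values adjusted over 15661 genes, and a gene is said to have risen or fallen where the adjusted p was under 0.05. In AID-JARID2, 16 of the 33 tested members fell (48.5%) and 5 rose (15.2%), where 17.0% of all genes tested fell and 19.5% rose. The median log2 fold change of the members was -0.36, against 0.01 for all genes. By at least 2-fold on the log2(TPM + 1) scale, 9 members fell and 1 rose, against 4.05% and 5.68% of all genes. In SUZ12-AID, 12 members rose (36.4%) and 3 fell (9.09%), where 15.1% of all genes rose and 4.05% fell, and the medians were 0.11 and 0.06. The 12 include Rasgrf1, which entered the test only through the auxin libraries of that line. On the same scale 2 members, Plagl1 and Sfmbt2, rose by at least 2-fold there (background 4.24%) and 0 fell (background 0.255%). In MTF2-AID 0 of 33 passed in either direction with limma (background 0.0447% higher and 0.0192% lower), and 0 had an unadjusted p under 0.05, where 9.50% of all genes did. The members' log2 fold changes in MTF2-AID lay between -0.37 and 0.42, with a lowest adjusted p of 0.581.

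**Figure D1:**
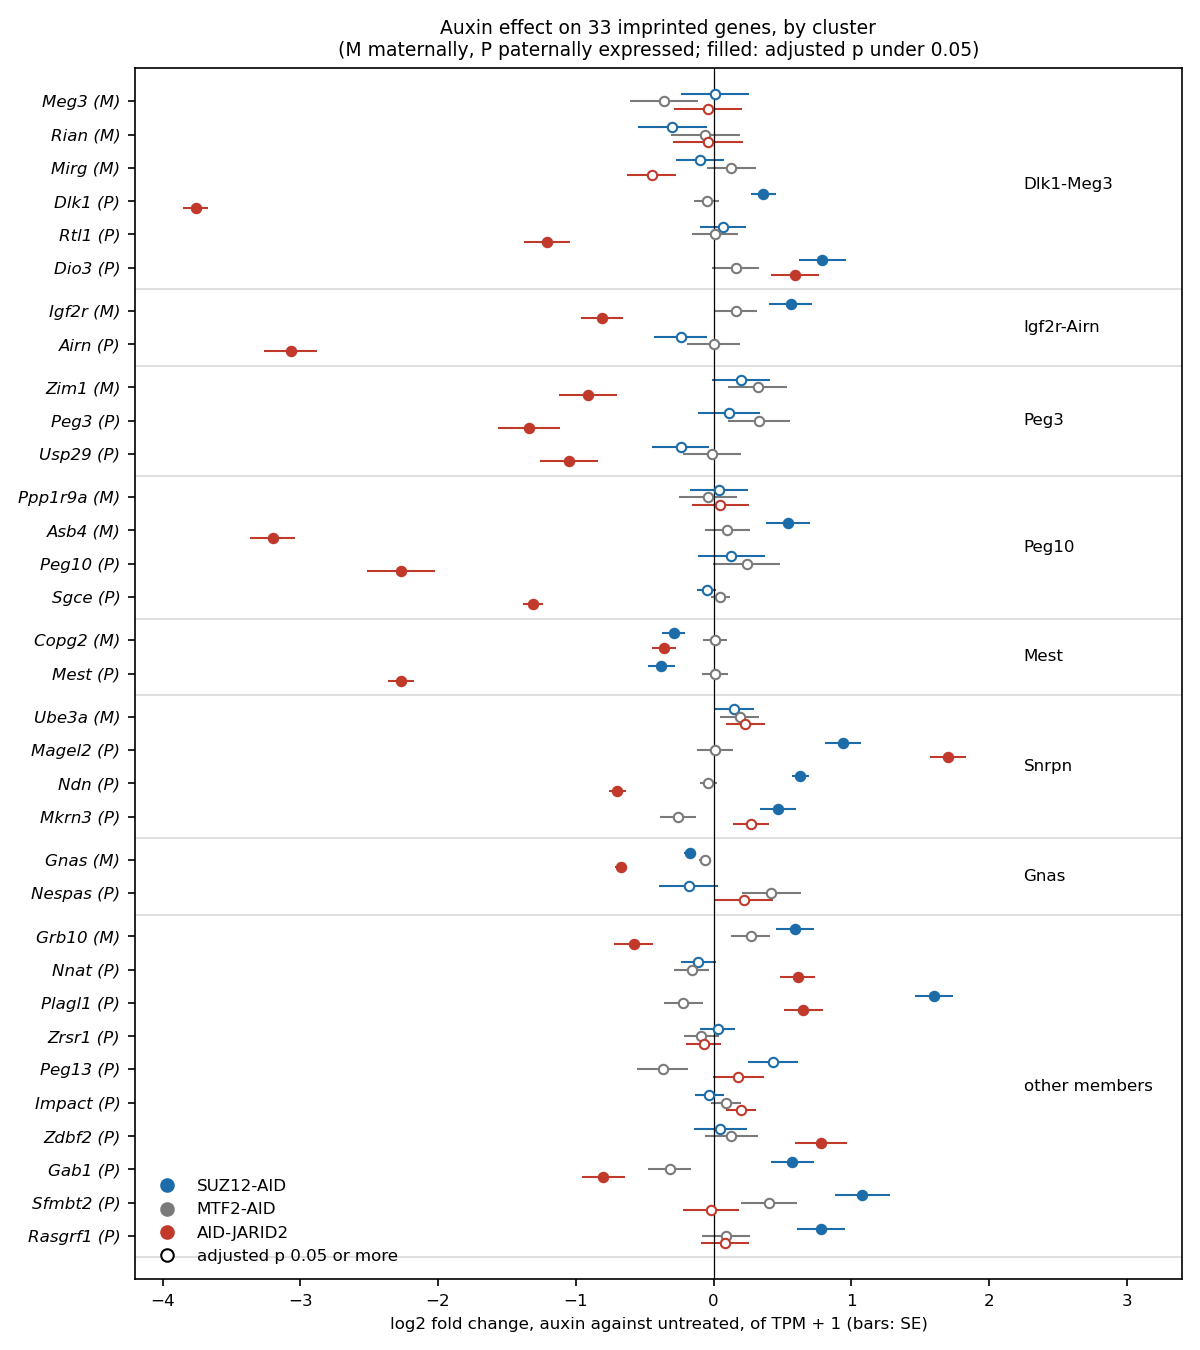
Log2 fold change of TPM + 1, auxin against untreated, for the 33 tested members in SUZ12-AID (blue), MTF2-AID (grey) and AID-JARID2 (red), with the SE as bars; filled points passed an adjusted p under 0.05. The red points reach down to -3.76 at Dlk1, the blue ones up to 1.60 at Plagl1, and all grey points are open.

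At the Dlk1-Meg3 cluster of chromosome 12, the paternally expressed protein-coding genes and the maternally expressed noncoding RNAs parted in AID-JARID2. Dlk1 (109452823 to 109463336, plus strand) encodes a transmembrane protein related to Notch ligands that restrains differentiation of several precursor cells. It stood at 54.1 and 47.2 TPM in the untreated and 2.73 and 2.88 TPM in the auxin libraries of AID-JARID2, supported by 1354, 1053, 74 and 91 reads. The groups lay far apart, with a mean 18.1-fold lower (log2 fold change -3.76, SE 0.0899, adjusted p = 2.58e-09). In SUZ12-AID Dlk1 was at 133 and 126 TPM untreated and at 178 and 156 TPM with auxin, a rise of 0.36 on the log2 scale (adjusted p = 0.0187). MTF2-AID held 206 and 183 TPM untreated and 189 and 186 TPM with auxin. The auxin effect in AID-JARID2 minus that in SUZ12-AID was -4.12 (SE 0.127, adjusted p = 5.92e-08).

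Rtl1 (109589193 to 109600330, minus strand), a retrotransposon-derived gene needed in the placenta, was low but moved the same way. It was at 1.91 and 2.68 TPM (52 and 65 reads) untreated and at 0.576 and 0.263 TPM (17 and 9 reads) with auxin in AID-JARID2. Both auxin libraries lay below both untreated ones, with a log2 fold change of -1.21 (SE 0.165, adjusted p = 0.000276). In the other lines all 8 libraries held more Rtl1 than any AID-JARID2 library: 5.80 and 5.56 TPM untreated against 6.28 and 5.72 TPM with auxin in SUZ12-AID, and 6.78 and 5.77 TPM against 6.27 and 6.36 TPM in MTF2-AID. Dio3, which encodes a deiodinase that inactivates thyroid hormone, rose instead. Its 2 untreated AID-JARID2 libraries held 1.75 and 1.39 TPM (17 and 12 reads) and the auxin libraries 2.76 and 2.94 TPM (29 and 36 reads), a log2 fold change of 0.59 (adjusted p = 0.0226). In SUZ12-AID it went from 1.74 and 1.33 to 3.57 and 3.13 TPM (0.79, adjusted p = 0.0107). Both Dio3 calls rest on few reads.

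The 3 maternally expressed RNAs of the cluster, Meg3, the snoRNA host Rian and the microRNA host Mirg, passed the test in no line. Meg3 (109541001 to 109571726, plus strand) was at 6.02 and 5.20 TPM untreated and at 5.36 and 5.52 TPM with auxin in AID-JARID2, a log2 fold change of -0.04 (SE 0.246, adjusted p = 0.942). Rian was at 13.9 and 12 against 12 and 13.1 TPM (-0.04, adjusted p = 0.941). Mirg was at 4.44 and 6.31 against 3.28 and 3.99 TPM (-0.45, adjusted p = 0.0711), so its groups did not overlap, although the test was not passed. Across the other lines Meg3 ranged from 2.22 to 5.27 TPM, and its auxin libraries in SUZ12-AID, 4.90 and 2.22 TPM, lay on either side of the untreated 2.96 and 3.74 TPM. Oligo(dT) selection and the several isoforms of these RNAs limit what their levels show.

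The noncoding RNA Airn fell together with Igf2r, the gene it overlaps in antisense, in AID-JARID2. Airn (chromosome 17, 12741311 to 12860136, plus strand) is paternally expressed and is known to silence Igf2r on the paternal copy. It was at 15.4 and 16.6 TPM (175 and 168 reads) untreated and at 1.14 and 0.907 TPM (14 and 13 reads) with auxin. The mean was 15.7-fold lower (log2 fold change -3.07, SE 0.191, adjusted p = 1.22e-06), and the 2 groups were far apart. In SUZ12-AID Airn was at 15.1 and 22.8 TPM against 13.5 and 18.0 TPM, overlapping (-0.24, adjusted p = 0.449), and in MTF2-AID at 30.8 and 33.5 TPM against 35.6 and 29.1 TPM. Its auxin effect in AID-JARID2 minus that in MTF2-AID was -3.07 (adjusted p = 2.99e-05).

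Igf2r (12682406 to 12769664, minus strand), the maternally expressed receptor that carries insulin-like growth factor 2 to lysosomes, moved in opposite directions in the 2 lines. In AID-JARID2 it was at 90.6 and 88.9 TPM untreated and at 51.9 and 49.8 TPM with auxin (log2 fold change -0.81, SE 0.155, adjusted p = 0.00250). In SUZ12-AID it was at 106 and 159.5 TPM untreated and at 175 and 212 TPM with auxin (0.56, adjusted p = 0.0300). Without replicate 1 of untreated SUZ12-AID the latter was 0.27 (adjusted p = 0.0859). MTF2-AID held the most Igf2r, 229 to 272 TPM over its 4 libraries. The effects in AID-JARID2 and SUZ12-AID differed by -1.37 (SE 0.219, adjusted p = 0.00151). Slc22a3, a cation transporter gene of the same cluster that is imprinted in the placenta, had at most 1.35 TPM in any library and was not tested. Igf2r and Airn overlap on opposite strands. The libraries mark strand, but whether the counting used it is not given in the sources used here, and sharing of reads between them was not tested.

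All 3 tested genes of the Peg3 cluster on chromosome 7 fell in AID-JARID2. Peg3 (6703892 to 6730431, minus strand), a paternally expressed zinc finger gene, was at 609 and 687 TPM untreated and at 249 and 261 TPM with auxin. The mean was 2.54-fold lower (log2 fold change -1.34, SE 0.224, adjusted p = 0.00105). Usp29, a paternally expressed gene of the ubiquitin protease family that starts from the opposite strand of the promoter printed above, went from 3.59 and 4.39 TPM to 1.20 and 1.61 TPM. That is 2.84-fold lower (log2 fold change -1.05, adjusted p = 0.00306). Zim1, the maternally expressed zinc finger gene of the cluster, went from 1.98 and 2.22 TPM (64 and 64 reads) to 0.683 and 0.612 TPM (24 and 25 reads; -0.91, adjusted p = 0.00739). Genes of both parental classes in the cluster thus fell.

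In SUZ12-AID the untreated Peg3 libraries, 194 and 372 TPM, lay on either side of the auxin libraries at 273 and 308 TPM. Usp29 there was at 1.55 and 2.74 TPM untreated and at 1.49 and 1.75 TPM with auxin. In MTF2-AID Peg3 was at 322 and 359.6 TPM against 440.2 and 417 TPM (log2 fold change 0.33, adjusted p = 0.722), and Usp29 at 2.32 and 2.93 TPM against 2.33 and 2.87 TPM. None of these passed. The auxin effect on Peg3 in AID-JARID2 differed from that in SUZ12-AID by -1.45 (adjusted p = 0.00850). For Usp29 the difference from SUZ12-AID was -0.81 (adjusted p = 0.0745) and from MTF2-AID -1.04 (adjusted p = 0.0279).

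Peg10, at the head of the cluster on chromosome 6, was the most abundant of the 36 genes in every library. Peg10 (4747306 to 4760517, plus strand) derives from a retrotransposon and is needed for placental development. It was at 1321 and 1450.3 TPM untreated and at 283 and 289.7 TPM with auxin in AID-JARID2. The mean was 4.84-fold lower (log2 fold change -2.27, SE 0.245, adjusted p = 5.95e-05). Sgce (4674350 to 4747207, minus strand), the sarcoglycan gene that starts beside it on the other strand, went from 46.0 and 44.9 TPM to 17.5 and 17.8 TPM, 2.57-fold lower (-1.31, SE 0.0706, adjusted p = 4.54e-07). Asb4 (5383386 to 5433022, plus strand) is maternally expressed and encodes an ankyrin repeat protein of ubiquitin ligases. It went from 25.5 and 29.1 TPM to 2.15 and 2.01 TPM, 13.2-fold lower (-3.20, SE 0.162, adjusted p = 2.84e-07). For all 3 genes the AID-JARID2 groups were well separated. Ppp1r9a, a maternally expressed actin-binding protein gene that lies between Sgce and Asb4, was at 7.60 and 9.38 against 8.31 and 9.30 TPM (0.05, adjusted p = 0.886).

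In the other lines 1 gene of this cluster passed the test, and only in SUZ12-AID. Peg10 was at 411 and 809 TPM untreated and at 549 and 728 TPM with auxin in SUZ12-AID, and at 783 and 888 TPM against 1006 and 961 TPM in MTF2-AID. Sgce was at 26.9 and 27.2 TPM against 25.5 and 26.8 TPM in SUZ12-AID, and at 31.2 and 33.2 TPM against 34.2 and 32.3 TPM in MTF2-AID. Asb4 was that gene: it rose in SUZ12-AID from 6.86 and 8.61 TPM to 12 and 11.3 TPM (log2 fold change 0.54, adjusted p = 0.0415), a call kept in 5 of 21 alternative analyses. In MTF2-AID it was at 4.06 and 3.93 TPM against 3.58 and 5.23 TPM. The Asb4 effects in AID-JARID2 and SUZ12-AID differed by -3.74 (SE 0.229, adjusted p = 3.49e-06).

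Mest (chromosome 6, 30723547 to 30748465, plus strand), a paternally expressed gene of mesodermal tissues related to hydrolases, fell in AID-JARID2 from 304 and 319 TPM to 62.4 and 65.1 TPM. The mean was 4.88-fold lower (log2 fold change -2.27, SE 0.0968, adjusted p = 9.15e-08). In SUZ12-AID it fell slightly, from 301 and 378 TPM to 262 and 255 TPM (-0.38, adjusted p = 0.0206), and in MTF2-AID it was at 386 and 372 TPM against 357 and 409 TPM. Copg2, a coat protein gene that overlaps the end of Mest on the other strand, fell from 51.3 and 57.8 TPM to 41.1 and 43.4 TPM in AID-JARID2 (-0.36, adjusted p = 0.00827) and from 52.3 and 61.5 TPM to 47.1 and 45.5 TPM in SUZ12-AID (-0.29, adjusted p = 0.0411). Without replicate 2 of untreated AID-JARID2 the former had an adjusted p of 0.0773, and without replicate 1 of its auxin group 0.0634. The Copg2 call in SUZ12-AID held in 9 of 21 alternative analyses. As for Igf2r and Airn, sharing of reads between Mest and Copg2 was not tested. The Mest promoter printed above holds 2 of the hexamers.

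**Figure D2:**
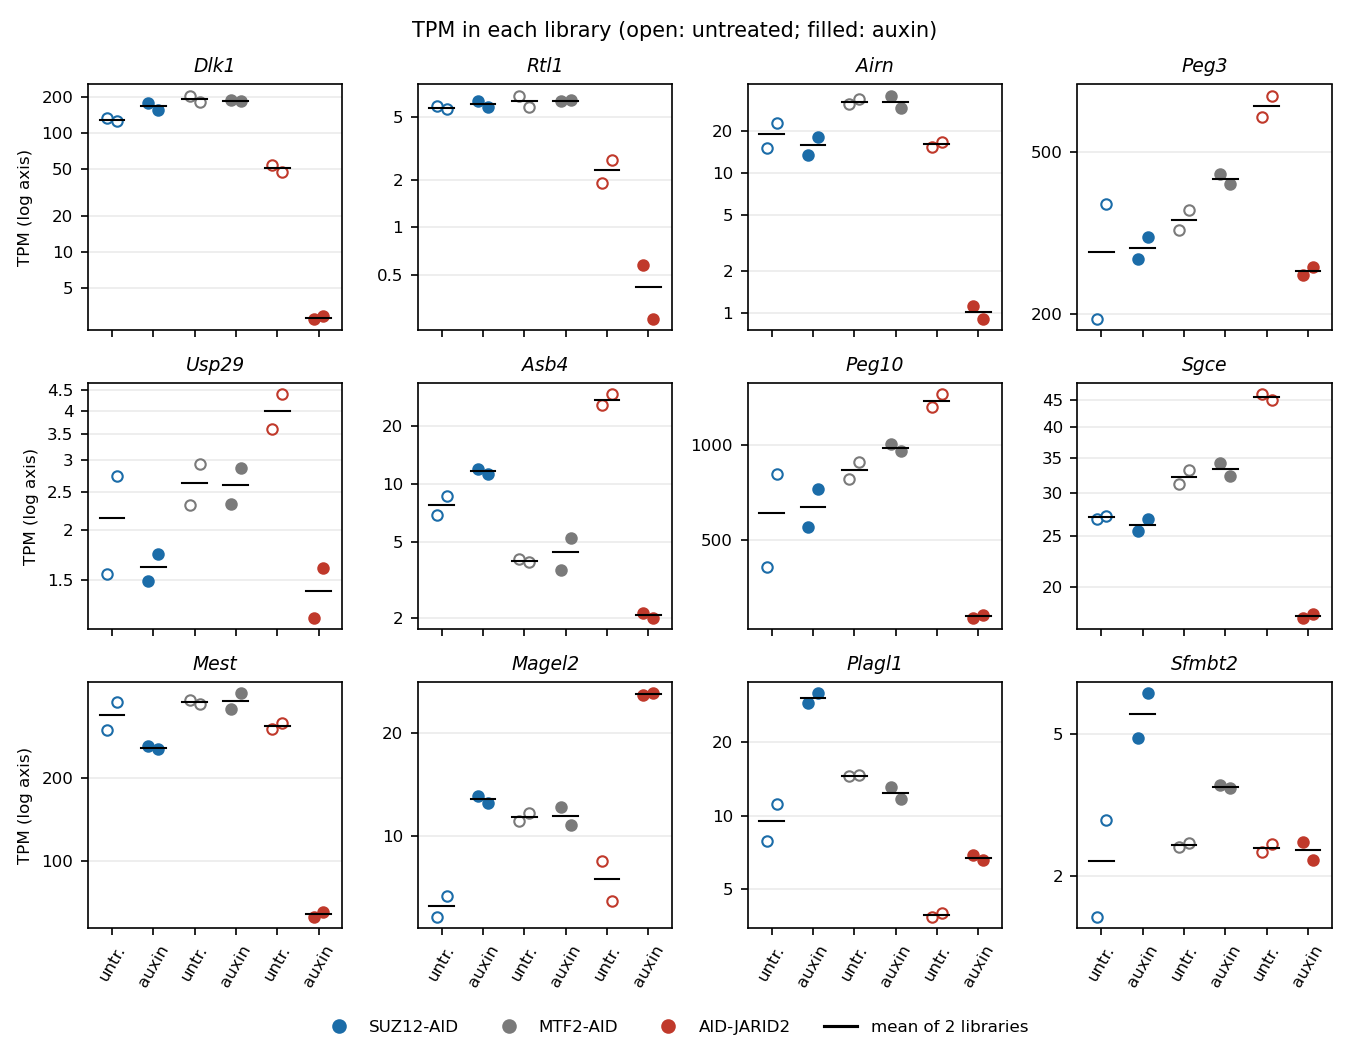
TPM on a log axis in each of the 12 libraries for the 12 members that passed the test in a line with at least 2-fold change; open circles are untreated, filled ones auxin, and bars the mean of 2 libraries. In AID-JARID2 (red) 9 genes fall, from Dlk1 to Mest, and Magel2 and Plagl1 rise, while in SUZ12-AID (blue) Dlk1, Asb4, Magel2, Plagl1 and Sfmbt2 rise and Mest falls.

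Within the Snrpn cluster of central chromosome 7, the region of Prader-Willi and Angelman syndromes in humans, neighbouring genes moved in different directions. Magel2 (62377010 to 62381640, plus strand), a paternally expressed gene of the MAGE family that acts in endosomal protein sorting, rose in both AID-JARID2 and SUZ12-AID. It went from 8.43 and 6.44 TPM to 26.0 and 26.3 TPM in AID-JARID2, 3.51-fold higher (log2 fold change 1.70, SE 0.129, adjusted p = 5.05e-06). In SUZ12-AID it went from 5.76 and 6.64 TPM to 13.1 and 12.5 TPM, 2.06-fold higher (0.94, adjusted p = 0.000982). MTF2-AID held 11.1 and 11.6 TPM untreated and 12.2 and 10.7 TPM with auxin. The rise in AID-JARID2 exceeded that in SUZ12-AID by 0.76 (adjusted p = 0.0136).

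Ndn (62346569 to 62350262, plus strand), the related MAGE gene that precedes Magel2 on the chromosome, fell in AID-JARID2 from 85.2 and 89.9 TPM to 56.4 and 51.0 TPM (log2 fold change -0.70, SE 0.0616, adjusted p = 1.45e-05). In SUZ12-AID it rose from 171 and 173 TPM to 273 and 259.6 TPM (0.63, adjusted p = 0.000191). It was the only SUZ12-AID call of the 33 that held in all 21 alternative analyses. The difference between the 2 effects was -1.32 (SE 0.0872, adjusted p = 5.12e-06). Mkrn3, a paternally expressed makorin ring finger gene, rose in SUZ12-AID from 7.10 and 7.66 TPM to 11.4 and 9.81 TPM (0.47, adjusted p = 0.0319) and had a log2 fold change of 0.27 in AID-JARID2 (adjusted p = 0.148).

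Ube3a, a ubiquitin ligase gene whose paternal copy is silenced in neurons by the antisense RNA Snhg14, did not pass in any line. In AID-JARID2 it was at 23.0 and 25.3 TPM against 27.7 and 29.2 TPM (log2 fold change 0.23, adjusted p = 0.238). Snhg14, which is not among the 36 and was looked up after its neighbours' values were known, went from 17.9 and 21.6 TPM to 59.5 and 77.7 TPM there (1.74, adjusted p = 1.18e-05). Its 4 libraries in SUZ12-AID lay at 14.9 to 17.6 TPM. Snrpn itself had at most 0.460 TPM and 0 to 5 reads in a library and was not tested. The row of Snurf, which shares its transcript, is listed at 0 in all 12 libraries, so the reads of this locus are uncertain.

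At the Gnas cluster of chromosome 2, Gnas (174284320 to 174346744, plus strand), which encodes the stimulatory G protein alpha subunit and overlapping imprinted transcripts, fell in AID-JARID2 from 280.3 and 267 TPM to 174 and 169 TPM. The log2 fold change was -0.67 (SE 0.0433, adjusted p = 1.60e-06). In SUZ12-AID it fell by less, from 315 and 323 TPM to 283 and 285 TPM (-0.17, adjusted p = 0.0215). The row does not separate the imprinted transcripts from the main one, which is expressed from both copies in most tissues. Nespas, the paternally expressed antisense RNA, was at 6.00 and 6.91 against 6.87 and 8.49 TPM in AID-JARID2 (0.22, adjusted p = 0.478).

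Of the 10 tested members outside these clusters, 5 rose in SUZ12-AID (50.0%, against 15.1% of all genes) and 3 in AID-JARID2 (30.0%, against 19.5%). The 5 include Rasgrf1, which entered the test only through the auxin libraries of SUZ12-AID. Plagl1 (chromosome 10, 13060504 to 13131694, plus strand), a paternally expressed zinc finger regulator of other imprinted genes, rose most in SUZ12-AID, from 7.91 and 11.1 TPM to 29.1 and 31.8 TPM. The mean was 3.20-fold higher (log2 fold change 1.60, SE 0.141, adjusted p = 0.000116). With the 4 libraries of that line fitted alone it no longer passed. It also rose in AID-JARID2, from 3.84 and 3.98 TPM to 6.88 and 6.56 TPM (0.65, adjusted p = 0.00476), and was at 14.5 and 14.7 TPM against 13.1 and 11.7 TPM in MTF2-AID. The rise in AID-JARID2 was smaller than in SUZ12-AID by -0.94 on the log2 scale (adjusted p = 0.00701).

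Zdbf2 (chromosome 1, 63273265 to 63314576, plus strand), whose upstream start is the window with 3 hexamers, rose in AID-JARID2 from 24.7 and 28.4 TPM to 44.9 and 47.7 TPM (log2 fold change 0.78, adjusted p = 0.00976). That call was lost without replicate 1 of its untreated group or replicate 2 of its auxin group. Nnat, a membrane proteolipid gene of the nervous system, rose there from 23.0 and 20.1 TPM to 33.3 and 33.3 TPM (0.61, adjusted p = 0.00362). Its levels in the other lines were higher throughout, 62.1 to 104 TPM. Neither gene passed in SUZ12-AID or MTF2-AID.

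Gab1 and Sfmbt2 are genes for which maternal H3K27me3 is the known imprinting mark. Gab1, a docking protein of growth factor receptors, rose in SUZ12-AID from 15.2 and 20.7 TPM to 23.4 and 30.8 TPM (log2 fold change 0.57, adjusted p = 0.0299) and fell in AID-JARID2 from 14.4 and 12.8 TPM to 7.28 and 7.50 TPM (-0.80, adjusted p = 0.00284). The effects differed by -1.36 (adjusted p = 0.00162). Sfmbt2, a Polycomb-family gene, rose in SUZ12-AID from 1.53 and 2.86 TPM to 4.86 and 6.49 TPM, 2.58-fold higher (1.08, SE 0.202, adjusted p = 0.00480). It was at 2.33 and 2.45 TPM against 2.49 and 2.22 TPM in AID-JARID2 (-0.02) and at 2.41 and 2.47 TPM against 3.59 and 3.51 TPM in MTF2-AID (0.40, adjusted p = 0.588). The MTF2-AID groups did not overlap, although the test was not passed. Slc38a4, an amino acid transporter gene with the same kind of mark that is outside the 36, fell in AID-JARID2 from 444 and 488 TPM to 117 and 117 TPM (-1.98, adjusted p = 1.18e-06). Not every imprinted gene outside the 36 fell there. Jade1 rose from 14.5 and 15.2 TPM to 24.1 and 25.7 TPM (0.71, adjusted p = 0.00305 with limma). Smoc1 rose from 7.69 and 6.67 TPM to 13.4 and 12.2 TPM (0.76, adjusted p = 0.00119 with limma).

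Grb10, the adaptor that restrains insulin and growth factor signalling and is maternally expressed outside the brain, rose in SUZ12-AID from 167 and 244 TPM to 281 and 328 TPM (log2 fold change 0.59, adjusted p = 0.0162) and fell in AID-JARID2 from 191 and 199.9 TPM to 129 and 133 TPM (-0.58, adjusted p = 0.00916). The latter had adjusted p-values of 0.0542 and 0.0516 without replicate 2 of the untreated or replicate 1 of the auxin group. Rasgrf1, a nucleotide exchange factor gene of the brain, rose in SUZ12-AID from 0.232 and 0.266 TPM (12 and 12 reads) to 1.01 and 1.29 TPM (41 and 40 reads; 0.78, adjusted p = 0.0119). It entered the test only through these 2 auxin libraries, the only ones with at least 1 TPM, so its place among the 12 increases follows in part from the filter. Both untreated AID-JARID2 libraries list it at 0, and no library outside SUZ12-AID exceeded 0.126 TPM. The splicing factor gene Zrsr1, Impact and the intronic RNA Peg13 passed in no line, with log2 fold changes between -0.37 and 0.43. Dcn, a proteoglycan gene that is imprinted in placenta, had at most 0.936 TPM and was not tested.

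The maternally and paternally expressed members both fell more often than they rose in AID-JARID2. Of 11 maternally expressed genes tested, 6 fell (54.5%) and 0 rose, with a median log2 fold change of -0.45. Among 22 paternally expressed genes 10 fell (45.5%) and 5 rose (22.7%), with a median of -0.04. Over all genes 17.0% fell and 19.5% rose, so the share of paternally expressed genes that rose lies near the background. All 5 members that rose in this line were therefore paternally expressed, and the paternal group held both the lowest and the highest value. The summed level of the maternally expressed members went from 696 and 703 TPM to 456 and 459 TPM, and that of the paternally expressed ones from 2572 and 2799 TPM to 859.6 and 884 TPM. Gnas, whose row does not separate its imprinted transcripts, held 280.3 and 267 TPM of the maternal sum untreated and 174 and 169 TPM with auxin. In SUZ12-AID, 3 maternally expressed genes rose (27.3%) and 2 fell (18.2%), against 9 (40.9%) and 1 (4.55%) of the paternally expressed, with medians of 0.04 and 0.12 and backgrounds of 15.1% and 4.05%. The 9 include Rasgrf1, which entered the test only through the auxin libraries of that line. Whether the 2 classes differ was not tested, since neighbouring genes share a control region and are not independent.

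**Figure D3:**
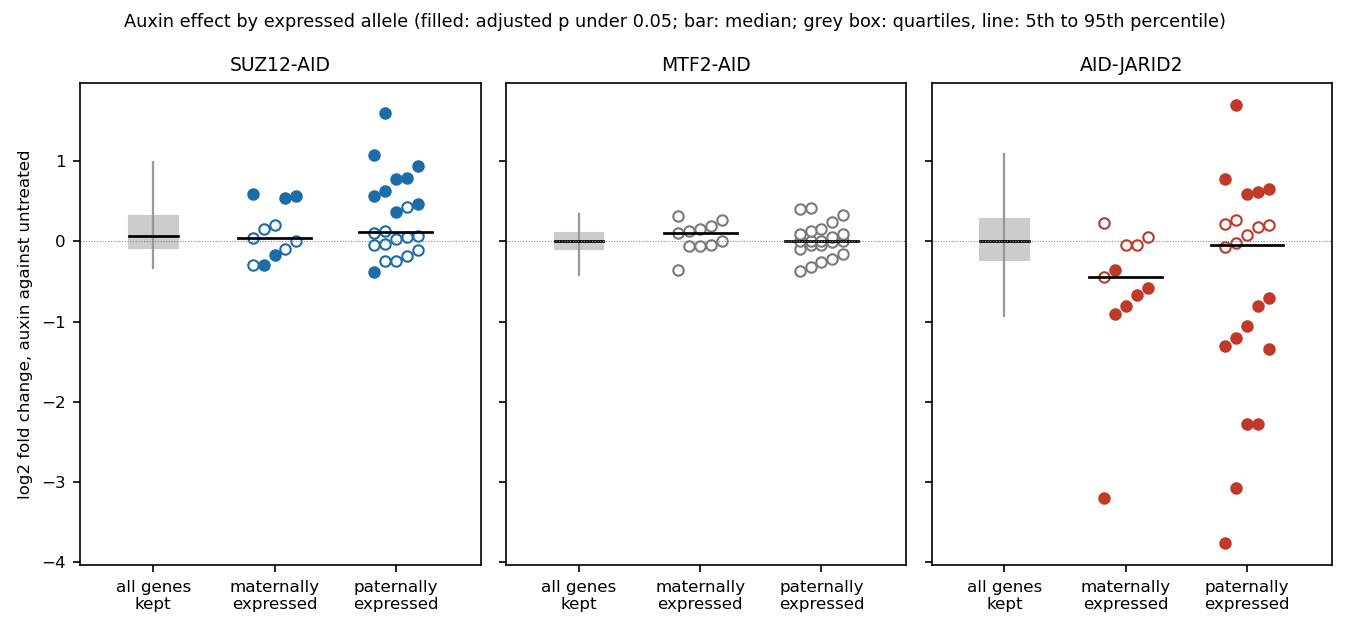
Log2 fold change, auxin against untreated, of the 11 maternally and 22 paternally expressed members in each line, beside all 15661 genes (grey box quartiles, line from the 5th to the 95th percentile); black bars are medians and filled points passed the test. In AID-JARID2 the maternally expressed genes have a median of -0.45 and the paternally expressed ones spread from -3.76 to 1.70.

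SUZ12-AID and AID-JARID2 share no libraries, and 6 members rose in the former and fell in the latter: Igf2r, Asb4, Grb10, Dlk1, Ndn and Gab1. Over all genes 1.95% had that pattern. For all 6 the difference between the effects also passed its own test, which follows largely from choosing genes with opposite calls. Dio3, Plagl1 and Magel2 rose in both lines (background 6.38%), and Copg2, Gnas and Mest fell in both (background 1.89%). No member fell in SUZ12-AID and rose in AID-JARID2 (background 0.568%). The effects of AID-JARID2 and SUZ12-AID differed for 18 of 33 members (background 24.0%), 16 of them with the lower effect in AID-JARID2. AID-JARID2 and MTF2-AID differed for 17 (background 24.3%). The contrast of MTF2-AID with SUZ12-AID gave 5 (15.2%, near the background of 11.1%): Plagl1, Magel2, Ndn, Mkrn3 and Gab1. All 5 had the lower effect in MTF2-AID, a direction shared by most calls over all genes (9.11% lower and 2.00% higher).

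The SUZ12-AID calls were the less stable. Weighting each line by its own spread left 5 of 12 increases (Grb10, Plagl1, Magel2, Ndn and Sfmbt2) and 0 of 3 decreases, and the 4 libraries of the line alone left only Ndn. Without replicate 1 of the untreated group 7 members rose, and without replicate 2 of the auxin group 5 did. Of the 21 AID-JARID2 calls, 17 held in every alternative that could test them, and Copg2, Grb10, Dio3 and Zdbf2 did not.

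**Figure D4:**
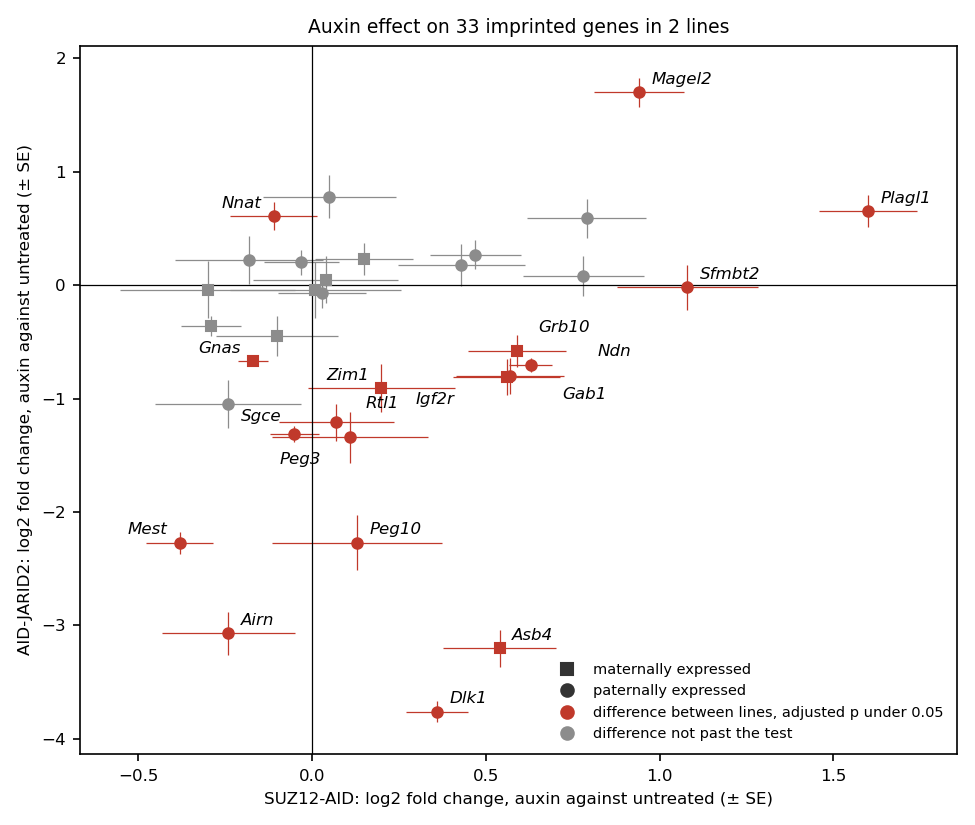
Log2 fold change with auxin in AID-JARID2 against that in SUZ12-AID for the 33 tested members, with SE bars; squares are maternally and circles paternally expressed, and red marks a difference between the 2 lines at an adjusted p under 0.05. Igf2r, Asb4, Grb10, Dlk1, Ndn and Gab1 lie at the lower right, higher in SUZ12-AID and lower in AID-JARID2, while Magel2 and Plagl1 lie at the upper right.

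The lines also differed in these genes in the cultures without auxin. Levels of 18 of 33 members differed among the 3 untreated groups (F test in limma, background 36.4%). Of these 18, the highest group was MTF2-AID for 11, AID-JARID2 for 5 and SUZ12-AID for 2, and the lowest was AID-JARID2 for 12. The order of the lines was not counted over all genes, so it cannot be called particular to the members. Asb4 was 6.84-fold higher in untreated AID-JARID2 than in MTF2-AID (adjusted p = 7.34e-06), with SUZ12-AID between them. Dlk1 was 3.83-fold (adjusted p = 1.11e-06), Nnat 4.45-fold (3.37e-06) and Plagl1 3.73-fold (4.19e-05) higher in MTF2-AID than in AID-JARID2. Peg3 and Peg10 were highest in AID-JARID2, 2.29-fold and 2.27-fold above SUZ12-AID. Genes that fell with auxin in AID-JARID2 thus included Asb4, Peg3, Peg10 and Sgce, whose untreated level was highest in that line. They also included Dlk1, Rtl1, Airn and Igf2r, whose untreated level was lowest there.

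Factors that keep or erase imprints were examined beside the members. Of 22 such genes 6 rose in AID-JARID2 (27.3%) and 3 fell (13.6%), with a median log2 fold change of 0.13. Over all genes 19.5% rose and 17.0% fell, so these shares lie near the background. The de novo DNA methyltransferase gene Dnmt3b went from 127 and 124 TPM to 678 and 679 TPM (log2 fold change 2.42, adjusted p = 2.68e-08). Zfp42, a gene of pluripotent cells that acts at some imprinted promoters, rose from 0.742 and 0.665 TPM to 2.6 and 2.59 TPM (1.08, adjusted p = 0.00181). Among the TET dioxygenases, which oxidise methylated cytosine, Tet1 rose from 12 and 13.4 TPM to 24.3 and 28.4 TPM (0.99) and Tet2 fell from 4.15 and 5.45 TPM to 1.65 and 1.64 TPM (-1.12). Zfp57, Dnmt3a and Hells also rose there, and Tet3 and Ehmt2 fell. In SUZ12-AID 3 rose (13.6%, background 15.1%) and 2 fell (9.09%, background 4.05%). Dnmt3l, the cofactor of de novo methylation, rose from 1.62 and 1.57 TPM to 4.87 and 6.24 TPM (1.33, adjusted p = 0.00167), and Uhrf1, which directs maintenance methylation, fell from 243 and 261 TPM to 184 and 187 TPM (-0.44, adjusted p = 0.000550). In MTF2-AID 0 of 22 passed. DNA methylation was not measured.

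Other imprinted genes and their partners were counted for comparison. Of 22 further imprinted genes tested, 6 rose (27.3%) and 7 fell (31.8%) in AID-JARID2, against 19.5% and 17.0% of all genes. In SUZ12-AID 4 rose (18.2%, near the 15.1% of all genes) and 0 fell. The calcitonin receptor gene Calcr, in the Peg10 region, rose in AID-JARID2 from 0.925 and 0.546 TPM to 3.82 and 4.09 TPM (log2 fold change 1.52, adjusted p = 0.000236), and entered the test only through these 2 auxin libraries. Atp10a, a flippase gene beyond Ube3a, rose in AID-JARID2 (1.07, adjusted p = 0.000135) and in SUZ12-AID (0.75, adjusted p = 0.00329). On distal chromosome 7, 6 of 11 tested genes fell (54.5%, background 17.0%) and 0 rose in AID-JARID2, and 5 rose (45.5%, background 15.1%) and 0 fell in SUZ12-AID. Of 14 genes known as partners in a network of coexpressed imprinted genes, some shared with that list, 8 fell (57.1%) and 2 rose (14.3%) in AID-JARID2 and 4 rose (28.6%) in SUZ12-AID, against the same backgrounds and 19.5% for the increases in AID-JARID2. None of these lists had a call in MTF2-AID, where 7 genes rose and 3 fell of all 15661.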

How the data were processed

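Polyadenylated RNA of 12 libraries (6 groups of 2) was measured with stranded dUTP libraries, per the labels' protocols. The authors deposited 1 table of TPM values by gene symbol. Per the submitters' processing notes, STAR 2.6.1d and the build mm10 were used, and the counting program, strand setting and annotation for the TPM values, not given in the sources used here, remain unknown. Whole reads were recovered from the TPM steps (100% of values above 0 within 0.01 reads of a whole number) and served only for depth. Rows of 2 repeated names (4 rows) were left out.

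Genes with at least 1 TPM in 2 libraries (15661) were fitted with limma 3.58.1 in R 4.3.3 on log2(TPM + 1), 1 term per group, with eBayes and a trend (degrees of freedom: 6 residual, 3.9 prior). All tests were two-sided, with Benjamini-Hochberg adjustment over all genes kept and a threshold of 0.05. The +1 understates changes of low genes, and folds without it compare mean TPM. The script was tested on simulated data. Values are given per library because n = 2, and SE is that of the log2 fold change. Every member is named, and all libraries are given for those past the test with at least 2-fold change on that scale and at least 1 TPM. Genes outside the 36 were named from lists, mostly up to 4 of the most changed in each. The members and lists were chosen with earlier results of these data known. The alternatives tried were 2 pseudocounts, 2 filters, 2 scalings, weights per line, each line alone, a replicate block and leaving out each library. Positions are from GENCODE vM21 and promoters from RefSeq.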

Additional observations from a re-analysis of the deposited data

Results flagged for a closer look

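The auxin effect differed in at least 1 of the 3 pairs of lines, by a test of the difference itself, for 20 of the 33 tested members. Over all genes AID-JARID2 minus SUZ12-AID called 24.0%, AID-JARID2 minus MTF2-AID 24.3% and MTF2-AID minus SUZ12-AID 11.1%. The share of all genes called in at least 1 pair was not computed, so the 20 have no background. Each value is the difference of log2 fold changes for the pair of lines with the largest tested difference. AID-JARID2 minus SUZ12-AID gave -4.12 for Dlk1 (adjusted p = 5.92e-08), -3.74 for Asb4 (3.49e-06), -1.37 for Igf2r (0.00151), -1.36 for Gab1 (0.00162), -1.32 for Ndn (5.12e-06) and -1.28 for Rtl1 (0.00319). The same pair gave -1.16 for Grb10 (0.00217) and -1.10 for Sfmbt2 (0.0196). For AID-JARID2 minus MTF2-AID the differences were -3.07 for Airn (2.99e-05), -2.51 for Peg10 (0.000551), -2.28 for Mest (2.32e-06), -1.67 for Peg3 (0.00368) and -1.36 for Sgce (8.24e-06). They were -1.23 for Zim1 (0.0139), -1.04 for Usp29 (0.0279), -0.61 for Gnas (7.36e-05), 0.77 for Nnat (0.0101) and 1.69 for Magel2 (0.000110). MTF2-AID minus SUZ12-AID gave -1.82 for Plagl1 (0.000749) and -0.73 for Mkrn3 (0.0331). All p-values are adjusted over 15661 genes with limma. Plagl1, Magel2 and Ndn differed in all 3 pairs of lines.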

How the results depend on the processing

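No called member changed direction under the alternatives that could alter it: the 2 pseudocounts, the 2 scalings and leaving out a library of the same line. The other alternatives keep a line's group means, so they could move the adjusted p but not the direction. Over all 21 alternatives, 660 of the single-gene values stayed on the same side of the threshold and 88 no longer passed. The number of members higher in SUZ12-AID was 12, and it was 5 with a variance weight per line, 1 with the libraries of that line alone and 5 to 15 when 1 library was left out (7 without untreated or auxin replicate 1, 5 without auxin replicate 2). The number lower there was 3, with 0, 0 and 0 to 4 in the same order (1 without untreated replicate 2, 0 without either auxin library). Leaving out 1 library gave 3 to 5 members higher in AID-JARID2 (main value 5, 3 without auxin replicate 2) and 3 to 8 for the contrast of MTF2-AID with SUZ12-AID (main value 5, 3 without any of the MTF2-AID libraries in turn and 8 without either untreated SUZ12-AID library). A group left with 1 library was assumed to vary like the others. The count in MTF2-AID was 0 throughout. Rescaling moved the SUZ12-AID calls over all genes, 78.8% of which were higher, to 57.6% (median of ratios), 53.1% (quantile) and, without replicate 1 of the untreated group, 56.1%, and the members called there were 9 higher and 3 lower, then 8 and 2, under the scalings. The causes were not tested.

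The main fit took same-numbered libraries as unpaired. Their deviations correlated across genes at 0.10 in SUZ12-AID, -0.04 in MTF2-AID and 0.01 in AID-JARID2. With 2 libraries per group these values cannot show whether same-numbered libraries shared a culture. A replicate block gave 10 higher and 3 lower in SUZ12-AID, 5 and 17 in AID-JARID2, 0 and 0 in MTF2-AID, and 20, 20 and 4 members in the contrasts between lines. Depth limits Dio3, Rtl1, Zim1 and Rasgrf1, and Snrpn at 0 to 5 reads could not be assessed.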
